A study of Mus musculus with 4 samples.

Results

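The immunity-related GTPase (Irg) clusters are runs of related genes on mouse chromosomes 11 and 18. The members are the loci of the deposited expression table that carry a transcript ID and overlap 1 of 3 windows, of which 2 lie on chromosome 11 and 1 on chromosome 18. This rule found 15 loci of the 17576 in the table, or of the 15883 that carry a transcript ID. The windows hold 8 loci (Irgm1 to Ifi47), 3 loci (Mrpl22 to Irgm2) and 4 loci (Gm4951 to Iigp1). Within the windows position alone chose the loci, and no expression value entered the rule. The clusters themselves were chosen with earlier results of these data known.

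The cells were C57BL/6 mouse embryonic fibroblasts (MEFs), primary connective tissue cells taken from embryos. All groups carried a knock-in in which an HA-tagged H3.3 cDNA took the place of the H3f3b gene, which encodes a histone H3.3, so no group has the unmodified locus. The 4 groups crossed a pretreatment state (naive or pretreated) with 0 h or 1 h of interferon-beta at 100 U/ml, with 1 library of polyA RNA in each. Values were analysed for the naive 1 h and the pretreated 1 h library; the 0 h libraries were not analysed here. The labels do not say how long the pretreatment lasted or how long before the 1 h stimulation it ended, and they conflict on the assay, which is RNA-seq in the series title and scTSS-seq in the sample descriptions. With 1 library in each group there is no replicate error, and every difference below is between 2 libraries, not between conditions.

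IRG proteins are GTPases that interferons induce in mouse cells and that protect cells against parasites and bacteria living in vacuoles. The effector members, such as Iigp1 and the Tgtp proteins, gather on the vacuole membrane and break it. The regulatory members Irgm1, Irgm2 and Igtp sit on the cell's own membranes and hold the effectors inactive there. Interferon-beta reaches such genes through the receptor pair Ifnar1 and Ifnar2 and transcription factors that include Stat2 and Irf9, which act at the interferon-stimulated response element (ISRE). The gamma-activated sequence (GAS) is another element found before interferon-inducible genes.

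The promoters of these genes are shown first, because 5 of them hold both elements in the same order and at the same spacing. RefSeq promoters (GRCm38.p6, 250 bases before to 50 after a gene's start) were found for 11 Irg genes of chromosome 11. Capitals mark the ISRE core, which is GAAA, any 2 bases and GAAA again, searched on both strands, and the GAS letters TTCNNNGAA, which read the same on both strands. The stretches of 60 bases run 5′ to 3′ along the gene's strand and are those of the 7 genes with an ISRE core upstream of the start.
Irgm1, chr11:48871421-48871480, minus strand: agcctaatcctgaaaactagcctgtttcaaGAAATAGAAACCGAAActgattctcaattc
Gm12185, chr11:48927229-48927288, minus strand: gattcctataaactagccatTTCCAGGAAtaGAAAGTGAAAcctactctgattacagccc
Tgtp1, chr11:48992295-48992354, minus strand: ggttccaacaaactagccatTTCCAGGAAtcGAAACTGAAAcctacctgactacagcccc
Tgtp2, chr11:49064254-49064313, minus strand: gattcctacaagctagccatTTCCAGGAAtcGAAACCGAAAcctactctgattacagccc
Igtp, chr11:58199491-58199550, plus strand: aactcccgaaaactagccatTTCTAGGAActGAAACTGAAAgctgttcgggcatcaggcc
Irgm2, chr11:58214882-58214941, plus strand: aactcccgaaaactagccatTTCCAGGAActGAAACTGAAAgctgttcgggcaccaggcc
Gm12250, chr11:58183749-58183808, plus strand: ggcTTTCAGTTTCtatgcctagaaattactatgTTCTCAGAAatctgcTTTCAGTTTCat

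An ISRE core was present in 8 of the 11 promoters (72.7%), against 3.44% of the 32851 promoters in the RefSeq table. In 9930111J21Rik1 the match lies 26 bases after the start, and that promoter is not printed. GAS letters were present in 6 of the 11 (54.5%), against 8.3% of all promoters. The joint pattern of the GAS letters, any 2 bases and the ISRE core, which was chosen after the sequences had been seen, occurs in 5 of the 32851 promoters, and these 5 are Gm12185, Tgtp1, Tgtp2, Igtp and Irgm2. These genes are copies within 1 family, so the 5 matches are not independent of each other. Irgm1 has 2 overlapping ISRE cores and no GAS letters, and Gm12250 has 2 ISRE cores on the opposite strand with GAS letters between them. Neither motif was found in the promoters of Gm5431, 9930111J21Rik2 and Ifi47, or in that of the neighbour Mrpl22. A match is a match of letters in this window and shows no binding.

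Loci were named from lengths and distances only, since the table gives transcript IDs and not symbols. Of the 15 loci, 7 have an interval of their own and 8 overlap another locus. A pair of intervals in the first chromosome 11 cluster holds several loci each, and the table does not say which gene each of those loci stands for, so the candidate genes are given instead. Positions of loci are those of the deposited table (mm9), while the promoter positions above are GRCm38.p6. Each interval covers a whole gene or run of genes, exons and introns together.

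The Irg clusters were expressed in both libraries, and most of their loci were higher in the pretreated one. Of the 14 loci with a mean of at least 1 FPKM (sequenced fragments, corrected for the length of the transcript and the size of the library), 6 were at least 2-fold higher in the pretreated library and 0 were lower by that much, on the log2(FPKM + 1) scale. Of all 10228 loci compared, 2.83% were higher and 7.12% lower by the same rule, and among the 9227 with a transcript ID the shares were 2.41% and 4.24%. The median log2 change, pretreated minus naive, was 0.74 over the 14 loci and -0.13 over the loci with a transcript ID, whose middle 50% lay between -0.46 and 0.18. By any amount 13 of the 14 loci were higher and 1, Mrpl22, was lower. Of the compared loci with a transcript ID, 60.7% had a change below that of Mrpl22 (-0.009) and so were lower. In the authors' deposited table, 7 of 14 loci tested were called higher at a q-value under 0.05 and 0 lower, against 3.91% higher and 11.9% lower of all 13388 loci tested, and 3.92% and 10.8% of the 11721 with a transcript ID. That call compares the reads of 2 libraries. In bulk RNA, more cells that express a gene and more of its RNA per cell cannot be told apart.

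The summed level of the 15 loci was 1274 FPKM in the naive and 3456 FPKM in the pretreated library, a ratio of 2.71. The sum over all loci with a transcript ID had a ratio of 1.01. FPKM is corrected for library size, which limits how far that sum can differ without fixing it, so its ratio is no background for the clusters. Of the clusters' summed FPKM, the 6 loci past the 2-fold rule made up 36.7% in naive and 63.2% in pretreated cells. They were picked for being higher in the pretreated library, so a larger share there follows from the choice. The 5 most abundant loci were above 100 FPKM in the naive library, where the median locus with a transcript ID stood at 1.74 FPKM, and 8 were below 25 FPKM.

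**Figure D1:**
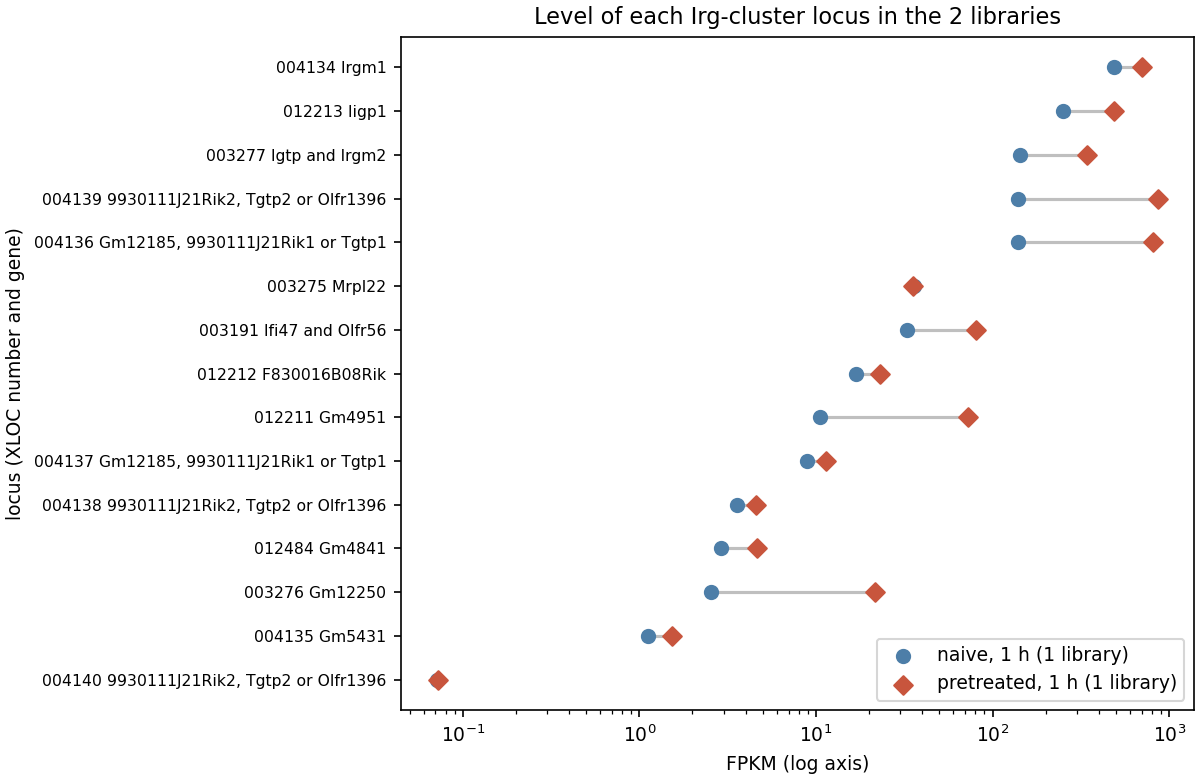
FPKM (log axis) of each of the 15 loci in the naive 1 h (circle) and the pretreated 1 h (diamond) library, ordered by the naive level; each point is 1 library, so there are no error bars. Irgm1 is highest in the naive library at 486 FPKM, and XLOC_004139 is highest in the pretreated library at 861 FPKM.

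Among the regulatory GTPases, Irgm1 was the most abundant member in the naive library. The Irgm1 locus (XLOC_004134, uc007ipg.1, chr11:48678611-48685000) stood at 486 FPKM in the naive and 703 FPKM in the pretreated library. The pretreated value was 1.45-fold the naive one, a log2 ratio of 0.53 with a 95% interval from -0.24 to 1.31, so the difference was within the error that the authors' statistic implies. Igtp and Irgm2, the other regulators, share 1 locus (XLOC_003277, chr11:58013058-58036285). That locus read 142 FPKM in the naive and 344 FPKM in the pretreated library, 2.42-fold higher, with a log2 ratio of 1.27 (interval 0.79 to 1.75) and a q-value of 1.21e-05 in the authors' deposited table. The single locus cannot show whether Igtp, Irgm2 or both were higher.

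The intervals above come from the deposited test statistic, taken as the log ratio divided by its standard error. They rest on these 2 libraries alone, and no difference between cultures was measured. Their width did not simply narrow with a higher level. The implied standard error was 0.27 for Gm12250 and 0.51 for XLOC_004139, the highest locus in the pretreated library. Which sources of error the statistic models is not given in the sources used here. By that measure 8 of the 14 intervals left out 0, and 4 lay wholly above a 2-fold ratio: Gm12250, Gm4951, XLOC_004136 and XLOC_004139. The 8 include F830016B08Rik (0.03 to 0.89), which the authors' deposited table does not call, with a q-value of 0.144. The shares of all loci with such intervals were not computed, so these 2 counts have no background.

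The loci of the Tgtp intervals held the highest values of the clusters in the pretreated library. Tgtp1 and Tgtp2 encode nearly identical effector GTPases, also called Irgb6. XLOC_004136 (chr11:48718158-48805756, an interval spanning Gm12185, 9930111J21Rik1 and Tgtp1) read 139 FPKM in the naive and 807 FPKM in the pretreated library, 5.82-fold higher. XLOC_004139 (chr11:48851162-48948889, an interval with 9930111J21Rik2, Tgtp2 and Olfr1396 on its minus strand) read 140 FPKM in the naive and 861 FPKM in the pretreated library, 6.14-fold higher. The log2 ratios were 2.54 (interval 1.55 to 3.53) and 2.62 (interval 1.61 to 3.63), so the difference between the 2 loci was far smaller than either interval. Their q-values in the authors' deposited table are 2.74e-05 and 1.9e-05. In FPKM, XLOC_004139 was at 1.01 times the level of XLOC_004136 in naive cells and at 1.07 times in pretreated cells.

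Whether these 2 loci count separate reads was not tested, and their genes share much of their sequence. In GENCODE M21 transcripts, 79.4% of the 50-base words of Tgtp1 also occur in Tgtp2, and 85.8% of those of Tgtp2 occur in Tgtp1. For 9930111J21Rik1 and 9930111J21Rik2 the shares are 80.4% and 56.1%. How the authors assigned reads that match several places is not given in the sources used here, so the level of each copy is uncertain. By contrast, 0.379% of the words of Irgm1, 0% of those of Gm12250 and 1.69% of those of Iigp1 occur in another gene.

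The other minus-strand loci of those intervals were low, and none of them passed the 2-fold rule; the plus-strand locus of Ifi47 is described with the effectors. XLOC_004137, with the same candidates as XLOC_004136, read 8.92 and 11.4 FPKM in the naive and the pretreated library. XLOC_004138, with the same candidates as XLOC_004139, read 3.57 and 4.57 FPKM. XLOC_004140 read 0.0715 and 0.0726 FPKM and was neither compared here nor tested by the authors. The 2 compared loci had an interval that included 0.

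Among the other effectors, Gm12250 had the highest FPKM ratio of the clusters, although its interval overlaps those of Gm4951, XLOC_004136 and XLOC_004139. On the log2(FPKM + 1) scale Gm12250 and Gm4951 both changed by 2.67. With a constant of 5 FPKM, Gm12250 ranked below Gm4951, XLOC_004136 and XLOC_004139. Gm12250 encodes Irgb10, a GTPase that acts on the membranes of bacteria. Its locus (XLOC_003276, uc011xvf.1, chr11:57997321-58005815) read 2.54 FPKM in the naive and 21.6 FPKM in the pretreated library. The ratio was 8.49-fold, a log2 ratio of 3.09 with the narrow interval of 2.56 to 3.62, and the authors' deposited table lists a q-value of 0. Its level was still among the lower ones of the clusters, with rank 10 of 15 in the pretreated library.

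Iigp1, the effector Irga6, was abundant in both libraries. Its locus (XLOC_012213, chr18:60535683-60552283) read 252 FPKM in the naive and 487 FPKM in the pretreated library, 1.93-fold higher. Its log2(FPKM + 1) change of 0.95 lies just outside the 2-fold rule, although the interval of its log2 ratio, 0.35 to 1.55, left out 0 and the authors' deposited table calls it higher with a q-value of 0.0201. Just inside the rule was the locus of Ifi47 (XLOC_003191, chr11:48851162-48948889), the effector also called Irgd, which shares its locus with the olfactory receptor gene Olfr56. It read 32.9 FPKM in the naive and 80.1 FPKM in the pretreated library, 2.43-fold higher, with a q-value of 0.00768 in the authors' deposited table.

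The chromosome 18 cluster also holds less studied copies, and these differed from each other. Gm4951 (XLOC_012211, chr18:60371731-60407474) read 10.6 FPKM in the naive and 73.0 FPKM in the pretreated library, 6.88-fold higher, with a q-value of 5.78e-13 in the authors' deposited table. Its neighbour F830016B08Rik (XLOC_012212, chr18:60427955-60462703) read 16.8 and 23.1 FPKM, 1.37-fold, and Gm4841, on the opposite strand of the same interval (XLOC_012484), read 2.92 and 4.64 FPKM, 1.59-fold. So Gm4951 was below F830016B08Rik in the naive library and above it in the pretreated one. Its log2 ratio interval of 2.09 to 3.47 does not overlap that of F830016B08Rik, 0.03 to 0.89.

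On chromosome 11, the copy Gm5431 (XLOC_004135, uc007ipi.2, chr11:48700924-48715654) was the lowest of the 14 compared loci in both libraries, at 1.12 and 1.52 FPKM, and its interval included 0. Mrpl22 (XLOC_003275, chr11:57985156-57993082) encodes a protein of the mitochondrial ribosome and no GTPase; it is a member only because its locus reaches into the window next to Gm12250. It read 35.8 FPKM in the naive and 35.5 FPKM in the pretreated library and was the 1 locus that was not higher.

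**Figure D2:**
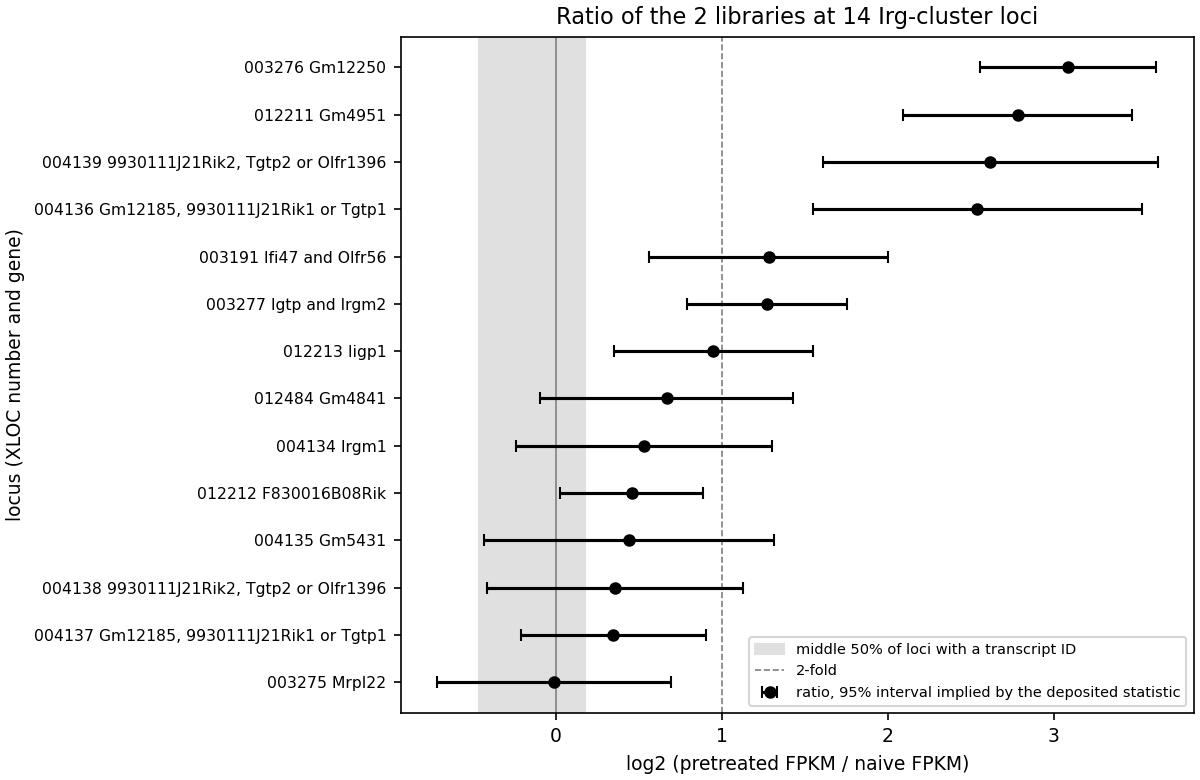
Log2 ratio of pretreated to naive FPKM for the 14 loci compared, with the 95% interval implied by the deposited statistic; the grey band is the middle 50% of log2(FPKM + 1) changes of loci with a transcript ID and the dashed line a 2-fold ratio. The intervals of 4 loci lie wholly above the dashed line, and that of Mrpl22 is centred at about -0.01.

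The differences changed the order of the levels within the clusters. In the naive library Irgm1 stood first, with 3.50 times the FPKM of XLOC_004136 and 3.47 times that of XLOC_004139. In the pretreated library it had rank 3, at 0.871 and 0.816 times those 2 loci. No error of a ratio between loci within a library can be had from the table, so the order of neighbouring levels has no check. The ratio of Irgm1 to the locus of the other regulators, Igtp and Irgm2, went from 3.42 to 2.04, and that to Iigp1 from 1.93 to 1.44. So the regulator Irgm1 stood above every effector locus in the naive library and below the Tgtp interval loci in the pretreated one. These ratios take FPKM as corrected for length, which holds for RNA-seq; were the reads from transcript starts, as the label scTSS-seq would have it, levels could not be set side by side between loci. For the shared intervals a level belongs to a locus and not to a named gene.

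**Figure D3:**
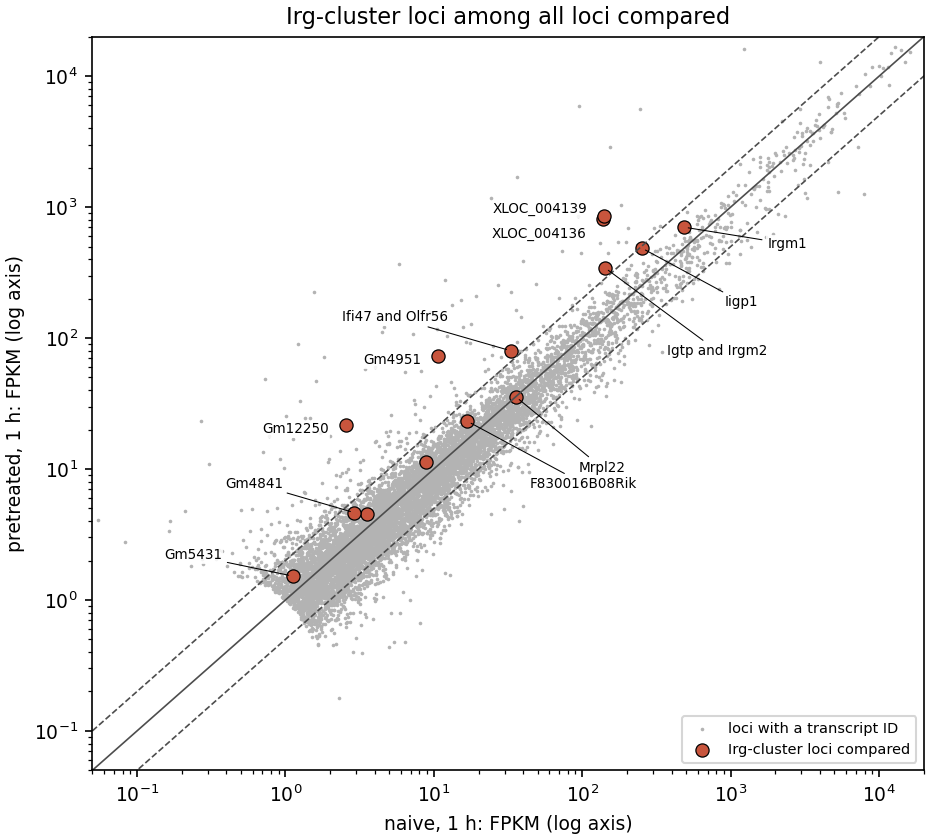
Pretreated against naive FPKM (both axes log) for 9203 of the 9227 loci with a transcript ID that were compared, with the 14 Irg-cluster loci as large points; 24 loci at or near 0 in a library or beyond the axes are not drawn. The solid line marks equal FPKM and the dashed lines a 2-fold ratio, and 6 Irg-cluster loci lie above the upper dashed line.

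By window, 3 of 7 loci compared were at least 2-fold higher between Irgm1 and Ifi47, 2 of 3 between Mrpl22 and Irgm2, and 1 of 4 on chromosome 18. The median log2 changes were 0.53, 1.27 and 0.74. Within 500 kb on either side, 18 other loci with a transcript ID were compared, of which 1 was at least 2-fold higher and 3 lower, with a median log2 change of -0.06. The 1 higher neighbour (XLOC_012218, 2.74 and 8.30 FPKM) lies 411 kb from the chromosome 18 window. The nearest neighbour beyond Iigp1, XLOC_012214 at 45.9 kb, went the other way, from 24.4 FPKM in the naive to 7.37 FPKM in the pretreated library.

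**Figure D4:**
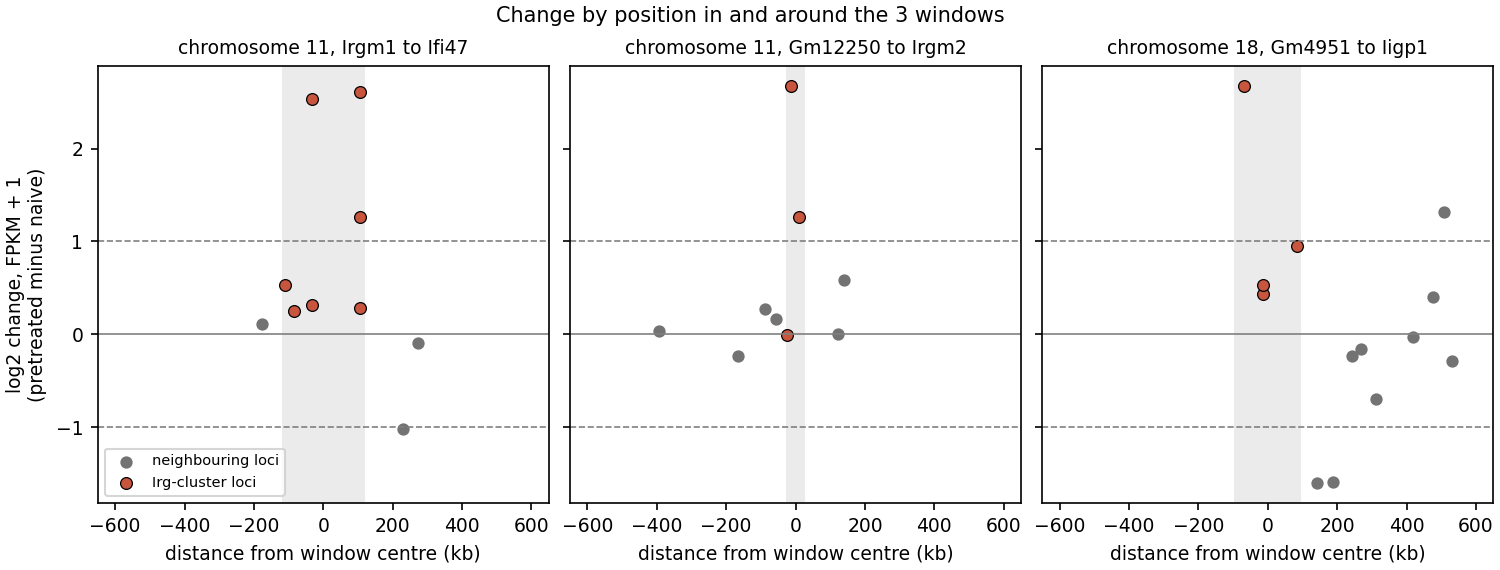
Log2(FPKM + 1) change, pretreated minus naive, against distance in kb from the centre of each window; large orange points are Irg-cluster loci, grey points neighbouring loci within 500 kb and grey bands the windows. Inside the bands 13 of 14 points lie above 0, and of the 18 grey points 1 lies above the upper dashed 2-fold line.

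Genes of the pathway were set beside the clusters from lists chosen with earlier results known. Of 15 genes of interferon signalling, 10 could be matched to a locus and 9 were compared: 1 was at least 2-fold higher, 2 were at least 2-fold lower, and the median log2 change was 0.06. The higher one was Usp18, a feedback inhibitor at the interferon receptor, at 184 FPKM in the naive and 1034 FPKM in the pretreated library. Of the subunits of the ISRE-binding complex, Stat2 read 31.5 and 55.4 FPKM and Irf9 30.8 and 58.2 FPKM, both higher by less than 2-fold and both called higher in the authors' deposited table, with q-values of 0.00310 and 0.00963. The receptor subunit Ifnar1 read 10.5 and 6.17 FPKM and is called lower there, with a q-value of 0.0303, while Ifnar2 read 5.13 and 5.38 FPKM and is not called.

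The 2 genes at least 2-fold lower were the transcription factor Irf1, at 555 and 263 FPKM, and the feedback inhibitor Socs3, at 8.10 and 0.667 FPKM in the naive and the pretreated library. The authors' deposited table calls Socs3 lower and does not call Irf1, whose q-value is 0.117; over the list it calls 3 genes higher and 2 lower. The part of Stat2, Irf9 or Irf1 in the differences at the Irg loci was not tested.

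A list of 31 genes covered IRG loading on membranes, other autophagy and ubiquitin genes, and related GTPases. Of these, 15 were matched and 11 compared: 0 were at least 2-fold higher or lower, and the median log2 change was 0.00. Its 9 compared genes of membrane loading and autophagy had a median of -0.10, with 4 above 0. Its 2 compared GTPases were both above 0. This division was made after the values were seen, and 10 of the 14 listed GTPases had no matched locus. Gbp2, a guanylate-binding protein that works beside the IRG proteins on vacuoles, was nearest to the rule, at 58.9 and 118 FPKM, a log2(FPKM + 1) change of 0.99, and Gbp11, of the same family, read 5.15 and 8.63 FPKM, a change of 0.65. Neither is called in the authors' deposited table. Ubiquitin-like proteins of the autophagy pathway guide IRG proteins to membranes. Gabarap read 447 and 464 FPKM, Map1lc3b 221 and 200 FPKM, and Gabarapl2 33.0 and 36.7 FPKM. These 3 differed by little. Of the genes that attach them to membranes, Atg5 read 13.8 and 12.8 FPKM, Atg12 13.1 and 11.2 FPKM, Atg16l1 1.52 and 1.00 FPKM, and Atg3 4.36 and 2.52 FPKM. All 4 were lower by less than 2-fold, with Atg3 lowest at a log2(FPKM + 1) change of -0.61, and none is called by the authors. The authors' deposited table calls 1 gene of this list higher, Gbp8, at 0.0754 and 0.580 FPKM.

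**Figure D5:**
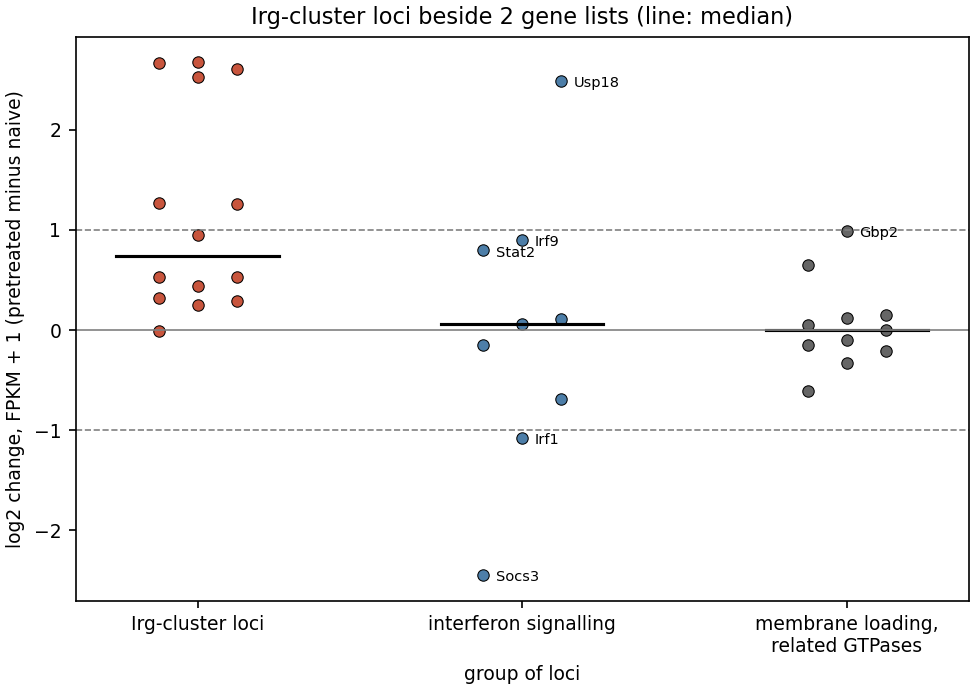
Log2(FPKM + 1) change, pretreated minus naive, of Irg-cluster loci (14), interferon signalling genes (9) and genes of membrane loading, autophagy and related GTPases (11). Each point is 1 locus, thick lines are medians and dashed lines a 2-fold change. The medians are 0.74, 0.06 and 0.00.

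The labelled cell type was checked with markers. Of 9 fibroblast markers 7 were matched, with a summed level of 5536 FPKM in the naive and 2896 FPKM in the pretreated library. Col1a1 was the highest of them, at 3255 and 1164 FPKM, with a log2 ratio interval of -3.09 to 0.12. Its log2(FPKM + 1) change of -1.48 made it the 1 marker of the 6 compared that was at least 2-fold lower. By that rule 0 were higher, and the median change of the 6 was -0.53. Vim read 917 and 704 FPKM, and Col1a2, Col3a1 and S100a4 were also lower in the pretreated library. Pdgfrb (45.0 and 47.8 FPKM) and Thy1, nearly absent at 0.144 and 0.293 FPKM, were higher there. None of the matched fibroblast markers is called in the authors' deposited table. Matched markers of macrophages (2 of 6) summed to 2.12 and 2.55 FPKM, of epithelium (2 of 4) to 1.30 and 1.42 FPKM, and of endothelium (1 of 3) to 0.0629 and 0.0204 FPKM. The part of the lower fibroblast sum in the differences at the Irg loci was not tested. At 14 spans of loci listed at 0 in 1 library, the pretreated library held an estimated 0.492 times the naive reads. This rests on values taken to stand for 1 read. A scaling between libraries would change that estimate, and the absolute depth is unknown.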

How the data were processed

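The authors deposited 1 table with a row per locus, holding an FPKM value for each of 2 libraries. The submitters' processing notes name TopHat, Cufflinks 1.2.1 and mm9; the columns, per the file headers, are those of a pairwise Cuffdiff comparison, and the filters, the annotation, the read length and any scaling between libraries are not given in the sources used here. The deposited test statistic is a score, and its deposited p-value equals the two-sided normal tail of that statistic within 2.86e-06 at 13009 loci. Implied standard errors are the size of the log2 ratio divided by the statistic. The deposited log2 fold change was recomputed from the FPKM values. The authors' q-value and call are printed as theirs. There were 0 value columns without a sample.

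Changes are log2(FPKM + 1), pretreated 1 h minus naive 1 h, for loci with a mean of at least 1 FPKM; a change past 2-fold is counted, and no test was run, since each group has 1 library. The constant of 1 FPKM understates the change of low loci. The members and gene lists were chosen with earlier results of these data known. Every member is named. Gene symbols were given where the span of a locus, or its distance to a neighbouring member, agreed within 500 bp with RefSeq GRCm38.p6 or GENCODE M21; no coordinate was carried between builds. The strand of a locus was read from its block of serial numbers, which matched the annotated strand at 1200 of 1271 loci of unique matching span. Deposited starts were raised by 1. For the lists, matching by span alone within 200 bp named 3 of 69 genes; matching by distance to the 5 neighbouring loci on each chromosome, added after the data were seen, named 38, and those are used; 1 of them is not reported here and was left out of its list. The joint motif was also added after the data were seen. Relative depth came from loci without an ID listed at 0 in 1 library. Scripts used Python 3.11.15, pandas 2.3.3, numpy 2.4.6 and scipy 1.17.1 and were tested on simulated data. Alternatives were another constant, another minimum, centring on the median, a 4-fold rule and subsets of the members.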

Additional observations from a re-analysis of the deposited data

Results flagged for a closer look

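A locus without a transcript ID, XLOC_012773, lies inside the chromosome 18 window, 682 bp from the Iigp1 locus (chr18:60534353-60535000), and so is outside the members. It read 0.819 FPKM in the naive and 7.93 FPKM in the pretreated library, a log2(FPKM + 1) change of 2.30, and the authors' deposited table calls it higher with a q-value of 5.38e-06. It drew attention because it is a signal in rows that the comparisons of the members do not use. With 1 library in each group the difference has no replicate check.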

How the results depend on the processing

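The count of 6 Irg-cluster loci at least 2-fold higher was the same with a constant of 0.1 or 5 FPKM, with no minimum, with a minimum of 5 FPKM and without Mrpl22, an alternative added after the data were seen. It was 7 after centring on the median of all loci (-0.16), which added Iigp1 and kept the other 6, 4 at a 4-fold rule, 5 of 10 on chromosome 11, and 3 of 7 for loci that overlap no other locus. The count of lower loci was 0 under each of these settings. The median log2 change of the clusters lay between 0.53 (no minimum) and 1.26 (minimum of 5 FPKM), against 0.74 as reported. Over all loci, 289 were at least 2-fold higher as reported, 465 with a constant of 0.1, 145 with 5, 423 after centring, 314 with no minimum, 176 with a minimum of 5 FPKM and 99 at 4-fold. Of the neighbouring loci 1 was higher as reported, 2 with a constant of 0.1 or no minimum, and 0 with a constant of 5 or at 4-fold. The log2 change of Gm12250 was 1.82 with a constant of 5 FPKM, against 2.67. At that constant it lay below XLOC_004139 (2.58), XLOC_004136 (2.50) and Gm4951 (2.32), so its top rank depends on the scale. No replicate could be left out. No paired analysis was possible because a lone library stands for every group. Depth limits the low loci most: the pretreated library held fewer reads by an estimate from 14 spans, and the absolute depth is unknown.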

Other observations

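The windows hold 4 loci without a transcript ID, and each read higher in the pretreated library. The share of all loci without a transcript ID that read higher was not computed. Beside XLOC_012773, XLOC_012772 read 2.97 FPKM in the naive and 6.04 FPKM in the pretreated library, and XLOC_012774, 90 bp from the Iigp1 locus, read 2.42 and 4.30 FPKM. XLOC_004926, 294 bp from the Irgm1 locus, read 0.332 and 1.27 FPKM.

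The medians of log2 FPKM over the 14 Irg-cluster loci compared, each library taken alone, correspond to 23.5 FPKM in the naive and 50.9 FPKM in the pretreated library; no single locus has these values. The loci outside the windows that lay nearest to this pair of values, by distance on the log2 scale over the 2 libraries, were XLOC_002558 (26.0 and 52.6 FPKM), XLOC_009923 (23.2 and 58.0 FPKM) and XLOC_016054 (26.8 and 46.1 FPKM).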
